A study of Mus musculus with 2 samples.

Results

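The cathepsins and cystatins examined here were 10 genes, namely the cysteine cathepsins Ctss, Ctsz, Ctsh, Ctsc, Ctsb and Ctsl, the aspartic cathepsins Ctsd and Ctse, and the inhibitors Cst7 and Cst3. They were represented by 18 of the 10829 probe sets that the platform annotation pairs with exactly 1 gene symbol, 10 of 8251 genes in all. The genes were chosen by name with earlier results of the same comparison in view, on the measured intensities of the PS cDKO and the control array, so the values below describe these arrays and test nothing. The arrays were hybridised with total RNA of mouse cerebral cortex, 1 from a presenilin conditional double knockout (PS cDKO) and 1 from its control, both at 6 months of age. The labels do not name the Cre driver, the control's alleles, the strain, or whether an array held RNA of 1 animal or several. In the published line of this name, as background, recombination is directed to excitatory neurons of the postnatal forebrain, so that microglia and astrocytes keep their presenilin genes. With 1 array per genotype no difference can be set against variation between animals, no replicate check exists and no p-value is given.

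Cathepsins are proteases of endosomes and lysosomes. They are made as inactive proenzymes, are activated at acidic pH and degrade proteins delivered by endocytosis, phagocytosis and autophagy. Cystatins are small proteins that occupy the active site of cysteine cathepsins and do not block the aspartic cathepsins. In brain, cathepsins B, D and L are found in neurons as well as glia, whereas cathepsin S is largely a microglial enzyme, and cystatin F, the product of Cst7, is known as a protein of activated microglia and other immune cells.

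The PS cDKO array had been multiplied by a constant that added 0.034 on the log2 scale, and PS cDKO signals are given after that step. Signals at or under 232 linear array units, the 40th percentile of both arrays pooled, were treated as too dim for a ratio, and this limit is called the floor. A probe set that exceeds the floor on each array has a full ratio, and a probe set that exceeds it on 1 array only has a bound, written "at least". Of the 12418 probe sets, 59.1% on the control and 60.9% on the PS cDKO array lay above the floor, and the deposited median intensities were 300 and 305. The floor is not a detection call: transcripts known from other organs, such as Cst9, a cystatin of testis (1389 units in the control against 1283), and Ahsg, a liver plasma protein with cystatin domains (1352 and 1268), also lay above it. Neuronal transcripts of cortex were bright, such as Snap25, a synaptic fusion protein with 4705 and 3632 units. The only targeted gene examined, Psen2, had 105 and 97.1 units, under the floor on each array, and gave no check of the genotype. Bulk tissue cannot tell more cells of a type from more RNA per cell.

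Among the members, Ctss and Cst7 had the highest gene ratios, 1.79-fold and 1.78-fold of the control level. Ctsd, Cst3 and Ctse followed at 1.36-fold to 1.39-fold. From its brightest probe set alone Ctse was 1.55-fold, above Ctsd and Cst3. Ctsb and Ctsl were close to the control level in all of their probe sets but 1. Ctsz, Ctsh and most of Ctsc were too dim for a ratio. Of the 18 probe sets, 10 had a full ratio, 3 a bound from the PS cDKO array and 5 no ratio. Of the 10, 9 were higher in the PS cDKO and 1 was lower; of all 6255 named probe sets with a full ratio, 3174 were higher and 3081 lower. Upward differences of 1.5-fold or more were seen in 4 probe sets, of Ctss, Cst7, Ctsb and Ctse, and downward ones in 0. Over all 6905 named probe sets with a full ratio or a bound, 1.27% passed 1.5-fold upward and 1.01% passed it downward. Since the genes were chosen with this contrast known, nothing is read from the difference between these shares.

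**Figure D1:**
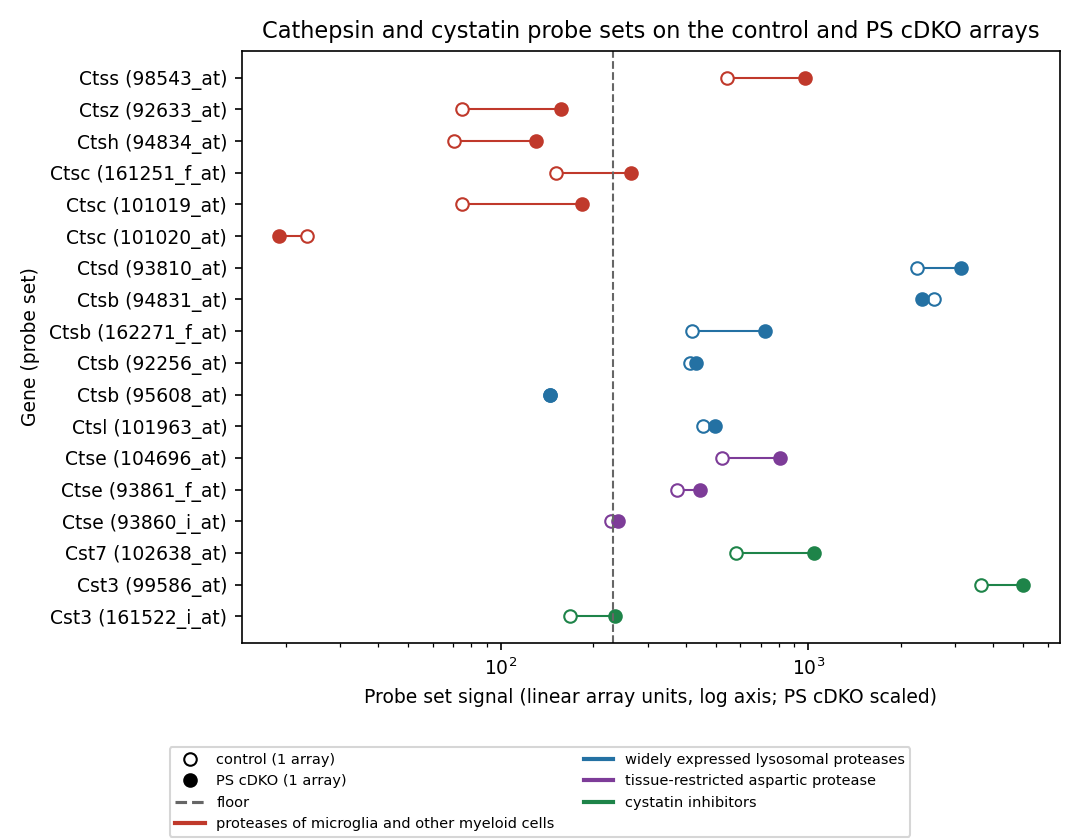
Signal of each of the 18 member probe sets (rows, gene and probe set identifier) on the control array (open circles) and on the PS cDKO array after scaling (filled circles), in linear array units on a log axis, with the floor of 232 as a dashed line and colours for the 4 classes of members. Ctss and Cst7 show wide gaps above the floor, most Ctsb probe sets almost none, and the probe sets of Ctsz and Ctsh lie left of the floor on both arrays.

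Upstream sequences are shown for Ctss, Cst7, Ctsd and Cst3, the 4 members with the highest gene ratios in the main setting. The letters ahead of genes of a myeloid, a widely expressed and an inhibitor class can thus be compared. They are the 250 bases before the annotated transcription start, from RefSeq on build GRCm38.p6, 5′ to 3′ on the gene's strand. Capitals mark matches on either strand to 5 short motifs: CACGTG (an E-box), TCACGTGA (an E-box with flanks bound by lysosomal regulators such as TFEB, which contains the former), GGAAGT (a core of Ets-family factors, to which the myeloid factor PU.1 belongs), TATAAA (the TATA box) and GGGCGG (a GC box). Of the 10 members, 7 had an entry; Ctsb, Ctsh and Ctse had none.
Ctss, plus strand, chr3:95526536-95526785: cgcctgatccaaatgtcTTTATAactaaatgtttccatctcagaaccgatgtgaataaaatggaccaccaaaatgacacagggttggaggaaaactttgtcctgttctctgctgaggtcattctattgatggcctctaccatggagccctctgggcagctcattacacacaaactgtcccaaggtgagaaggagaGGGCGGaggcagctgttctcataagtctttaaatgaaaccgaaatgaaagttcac
Cst7, plus strand, chr2:150570165-150570414: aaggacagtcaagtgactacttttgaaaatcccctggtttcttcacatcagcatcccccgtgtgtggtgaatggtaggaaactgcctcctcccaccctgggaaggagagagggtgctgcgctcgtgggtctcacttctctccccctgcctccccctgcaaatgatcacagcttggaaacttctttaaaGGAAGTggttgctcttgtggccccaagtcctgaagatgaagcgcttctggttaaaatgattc
Ctsd, minus strand, chr7:142387828-142388077: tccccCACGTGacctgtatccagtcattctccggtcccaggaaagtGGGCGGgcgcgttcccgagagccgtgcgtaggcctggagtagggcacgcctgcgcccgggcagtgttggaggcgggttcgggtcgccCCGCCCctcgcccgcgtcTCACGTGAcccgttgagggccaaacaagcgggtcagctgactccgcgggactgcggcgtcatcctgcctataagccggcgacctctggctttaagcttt
Cst3, minus strand, chr2:148875513-148875762: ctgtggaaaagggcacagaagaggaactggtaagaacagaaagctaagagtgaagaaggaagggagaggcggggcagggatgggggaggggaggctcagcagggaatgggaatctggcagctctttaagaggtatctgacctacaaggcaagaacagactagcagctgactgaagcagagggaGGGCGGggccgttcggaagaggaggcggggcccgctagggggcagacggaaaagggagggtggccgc

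The Ctsd window held CACGTG at 2 places, 245 to 240 and 98 to 93 bases before the start, and the nearer of them was part of TCACGTGA. No other member window held TCACGTGA, which occurred in 0.785% of all 32851 promoter windows of that length. CACGTG occurred in 6.02% of all windows and, among members, in those of Ctsd and Ctsl. The Ctsl window ended in AG after 17 pyrimidines in 20 bases, letters usual at the end of an intron, so its annotated start may not be where transcription begins. The Cst7 window held GGAAGT 62 to 57 bases before the start, and the Ctsc window held it on the opposite strand, against 19.7% of all windows. GGGCGG was found in 5 of the 7 member windows, those of Ctss, Ctsz, Ctsc, Ctsd and Cst3, and in 32.7% of all. TATAAA was found only in the Ctss window, on the opposite strand and 233 to 228 bases away, and in 12.4% of all. These matches are letters in a window, and no binding was measured.

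Ctss, the cysteine protease of microglia that trims the MHC class II invariant chain, was the member with the highest ratio. It measured 545 units on the control array against 978 on the PS cDKO array, a 1.79-fold or 0.84 log2 difference. It ranked 10th from the highest of 6255 named probe sets with a full ratio and 11th of 5885 measured genes. No second Ctss probe set was on the array, so this value has no repeat within the arrays. Under every setting of scaling and floor tried, it lay between 1.75-fold and 1.81-fold.

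The other proteases of microglia and other myeloid cells were dim. Ctsz, the carboxypeptidase cathepsin X, had 75.0 units in the control against 157. Ctsh, an aminopeptidase, had 70.2 and 130 units. Ctsc, dipeptidyl peptidase I, which activates granule serine proteases of immune cells, had 3 probe sets. Probe set 161251_f_at had 151 and 266 units, at least 1.15-fold higher, and 101019_at had 74.6 and 183 units. The third Ctsc probe set, 101020_at, was close to no signal, with 23.5 and 19.0 units.

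Without the floor, Ctsz was 2.09-fold, Ctsh 1.86-fold and the 2 brighter Ctsc probe sets 1.76-fold and 2.46-fold higher, while 101020_at was 1.24-fold lower. Of the 5 member probe sets with no full ratio or bound, 3 passed 1.5-fold upward and 0 downward. Among all 3902 named probe sets of that kind with positive intensities, 12.7% passed 1.5-fold upward and 4.48% downward, and the median log2 ratio was 0.13, so dim probe sets as a whole leaned upward. The disagreement between dim probe sets of the same gene was also wide: over 441 genes the SD per probe set, from the brightest pair of each gene, was 0.67 on the log2 scale, or 1.59-fold, against 0.21, or 1.16-fold, over 749 genes with full ratios. The differences of Ctsz, Ctsh and Ctsc are thus not resolved at this signal.

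The widely expressed proteases differed among themselves. Ctsd, the main aspartic protease of lysosomes, was one of the brightest members, with 2261 units in the control against 3137, a 1.39-fold or 0.47 log2 difference. Ctsl, a broad lysosomal endopeptidase, had 456 and 498 units, 1.09-fold. Each of them was measured by a single probe set.

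Ctsb, a cysteine protease with both endopeptidase and carboxypeptidase activity, had 4 probe sets that did not tell the same story. The brightest, 94831_at, had 2561 units in the control against 2343, 1.09-fold lower and the only lower member probe set among those with a full ratio. Probe set 92256_at had 412 and 430 units, 1.04-fold higher. Probe set 95608_at was below the floor with 144 and 145 units, nearly equal. Only 162271_f_at stood apart, with 419 and 725 units, 1.73-fold higher and 18th of the 6255 with a full ratio. In the array maker's naming the suffix f marks probe sets whose probes may match several sequences of a family; whether this one reads other transcripts was not tested. The Ctsb gene value, a mean over the 3 full ratios, was 0.24 on the log2 scale, but it was -0.03 without suffixed probe sets and -0.13 from the brightest probe set alone, so the direction for Ctsb depended on 1 suffixed probe set.

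Ctse, an aspartic protease of endosomes known from stomach, red cells and immune cells, was measured by 3 probe sets. Probe set 104696_at had 522 units in the control against 809, 1.55-fold higher. The suffixed probe sets 93861_f_at, with 375 and 446 units, and 93860_i_at, with 229 and 241 units, were 1.19-fold and at least 1.04-fold higher, and both derive from the same source sequence, which is not that of the former. Whether these suffixed probe sets read other transcripts was not tested. The Ctse gene value of 1.36-fold includes 93861_f_at. After quantile normalization 93860_i_at had a log2 ratio of -0.0071. In the main setting 93860_i_at passed the floor only on the PS cDKO array, so it had to be higher there. The 2 probe sets with a full ratio shared a direction but not a size.

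Both inhibitors lay higher. Cst7, which encodes cystatin F, an inhibitor targeted to lysosomes, had 584 units in the control against 1041, 1.78-fold or 0.83 on the log2 scale, and ranked 15th of the measured genes. As for Ctss, a single probe set carried this value, and it lay between 1.74-fold and 1.81-fold under every setting of scaling and floor tried. Cst3, which encodes cystatin C, the abundant secreted inhibitor made by astrocytes, neurons, microglia and choroid plexus, had 3647 and 4975 units, 1.36-fold higher. Its second probe set, 161522_i_at, had 168 and 235 units, a bound of at least 1.01-fold, which became 1.40-fold once the floor was removed. The control signal of Cst3 exceeded that of 99.5% of probe sets, and both arrays had it near the top of their range.

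Ctsd, Cst3 and the brightest Ctsb probe set lie in a range where most probe sets were lower in the PS cDKO, as the Ctsb probe set was and Ctsd and Cst3 were not. Of 206 named probe sets above 2000 units on both arrays, 70 were higher in the PS cDKO, and the median log2 ratio was -0.09. Within them Ctsd ranked 8th and Cst3 10th from the highest, and the brightest Ctsb probe set 120th. A lowess fit, which removes a trend of the ratio with signal, gave log2 ratios of 0.59 for Ctsd and 0.61 for Cst3, or 1.51-fold and 1.53-fold, and -0.02 for the Ctsb probe set. In that setting 6 member probe sets passed 1.5-fold upward, and 1.14% of all named probe sets with a full ratio or a bound did.

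**Figure D2:**
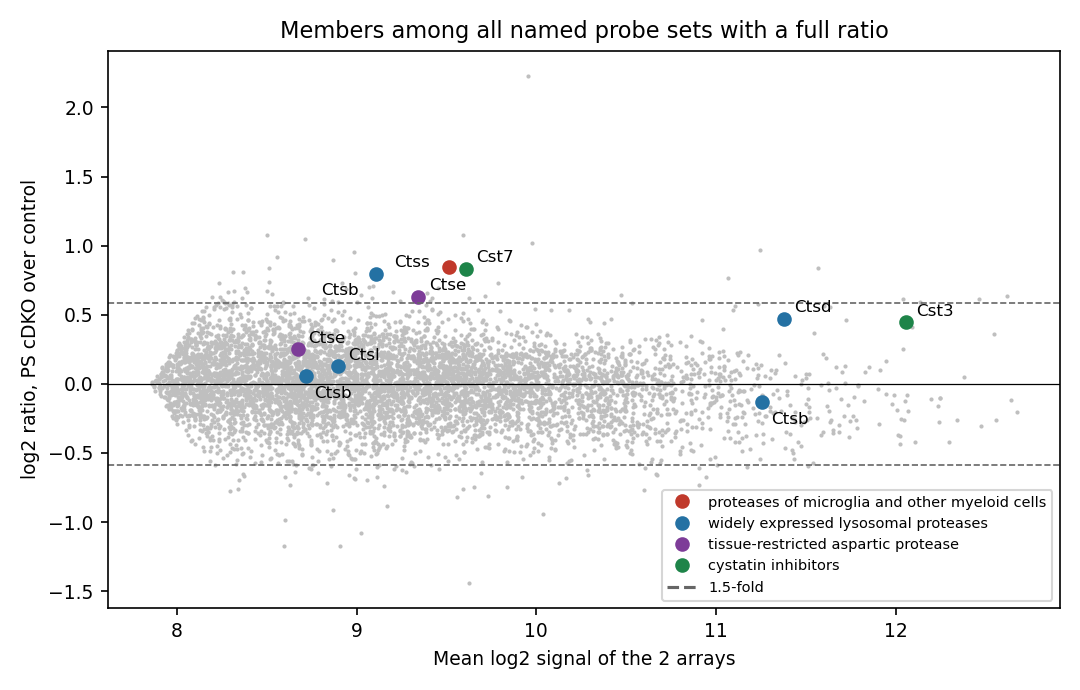
Log2 ratio of PS cDKO over control (vertical axis) against the mean log2 signal of both arrays (horizontal axis) for the 6255 named probe sets with a full ratio (grey points), with the 10 member probe sets among them coloured by class and dashed lines at 1.5-fold. Ctss, Cst7, 1 Ctsb and 1 Ctse probe set lie above the upper dashed line, Ctsd and Cst3 stand above most probe sets of like brightness, and the brightest Ctsb probe set lies within the grey band.

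By class, the median log2 ratio over the probe sets with a full ratio or a bound was 0.52 for the myeloid proteases (2 of 6 probe sets), 0.13 for the widely expressed ones (5 of 6), 0.25 for Ctse (3 of 3) and 0.45 for the cystatins (3 of 3). Over the 13 member probe sets concerned it was 0.25, and over all 6905 it was 0.01. A probe set that passed only on the array where it was brighter had to differ, so these medians are descriptions; from full ratios alone, the member median was 0.46 and that of all probe sets 0.0045. The myeloid class has its only full ratio in Ctss, which does not allow a comparison of microglial with widely expressed cathepsins as classes. Gene by gene, Ctss and Cst7 had larger ratios than Ctsd and Cst3, and these than Ctsl. In the main setting the gap was 0.36 between Cst7 and Ctsd and 0.02 between Ctsd and Cst3 on the log2 scale. After lowess Cst7 was at 0.84, Ctsd at 0.59 and Cst3 at 0.61, and after quantile normalization at 0.86, 0.57 and 0.54. Each of these values rests on 1 probe set, and the SD per probe set with a full ratio was 0.21.

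**Figure D3:**
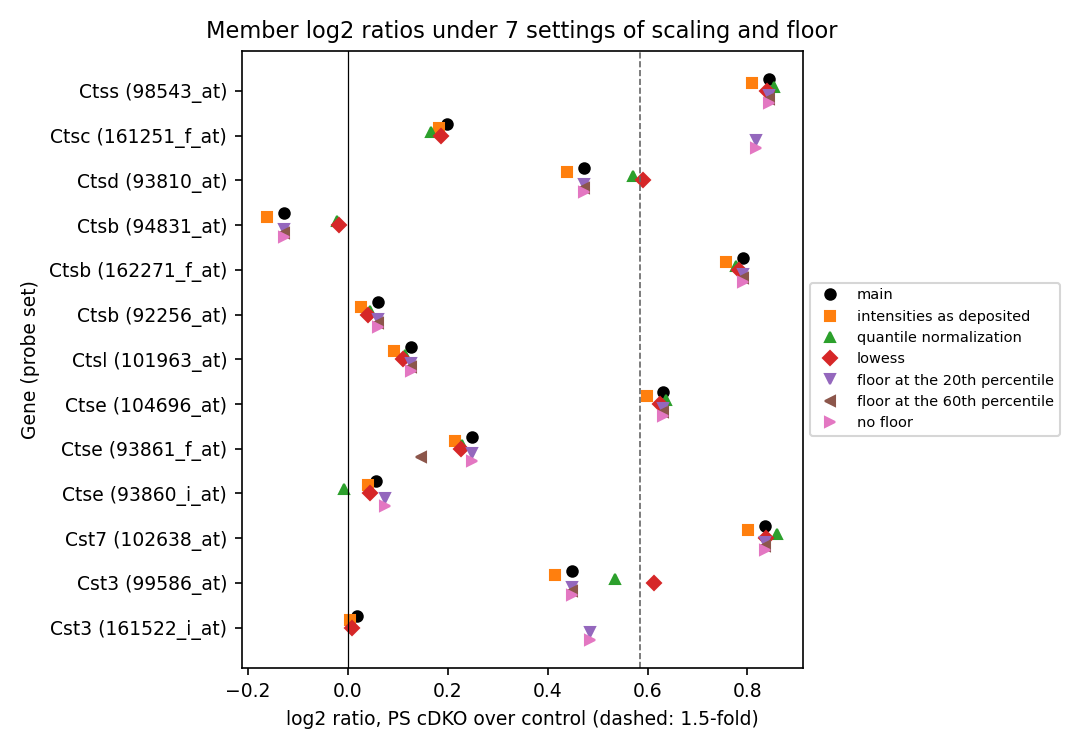
Log2 ratio of PS cDKO over control (horizontal axis) of the 13 member probe sets with a ratio or a bound (rows) under the main setting and 6 alternatives for scaling and floor (symbols), with a dashed line at 1.5-fold. Ctss, Cst7, 1 Ctsb and 1 Ctse probe set stay right of the dashed line, Ctsd and Cst3 pass it only after lowess, and Ctsc 161251_f_at and Cst3 161522_i_at, bounded in the main setting, lie farther right with a lower floor or none.

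The other cathepsins with a ratio all had smaller ratios than Ctss, from dimmer signals. Of 14 listed, 6 were on the array and 4 had a ratio: Ctsk, the collagenase of osteoclasts, was 1.24-fold higher (330 against 410), whereas Ctsa, a carboxypeptidase that protects lysosomal glycosidases, was at the control level (254 against 253), Ctsf was 1.18-fold lower (321 against 272) and Ctsw, a protease of cytotoxic lymphocytes, 1.12-fold lower (271 against 243). Ctsg and Cts7 were below the floor. The control signals of the 4, from 254 to 330 units, were not far above the floor of 232. With the floor at the 60th percentile only 1 was measured. Whether the signals of Ctsk and Ctsw read transcripts of cortex was not tested. The median log2 ratio of the 4 was -0.08, against 0.01 over all 5885 measured genes. None of the 4 reached 1.5-fold in either direction; over all measured genes 1.12% passed it upward and 0.816% downward.

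The signals of the other measured genes of the cystatin family likewise lay near the control level. Cstb, the cytosolic cystatin B, had 528 and 533 units, and Kng1, a plasma kininogen with cystatin domains, had 524 and 541. With Cst9 and Ahsg, given above, the 4 measured of 17 listed had a median of -0.04. Of them 2 were higher, or 1 with the intensities as deposited. Cst9 and Ahsg are known from other organs and Kng1 from plasma. Whether their signals read transcripts of cortex was not tested. Of endolysosomal proteases outside the cathepsin family, Lgmn, the asparaginyl endopeptidase that processes several cathepsins to their mature forms, was 1.14-fold higher (304 against 346), Dpp7 1.12-fold, Tpp1 1.03-fold of control and Napsa level (928 against 925), with a median of 0.10 over 4 measured of 9 listed. The inhibitors of other protease classes had a median of 0.05 over 11 measured genes, 7 of them higher; Serpina3n, a serpin of reactive astrocytes, was 1.79-fold (548 against 980), Timp1, an inhibitor of matrix metalloproteinases, 1.28-fold and Serpinf1 1.22-fold higher, and Serpini1, neuroserpin, was 1.31-fold lower.

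In the list of genes for the delivery and activation of lysosomal enzymes, 6 of 14 were measured, with a median of -0.04. Of these, 3 were higher and 3 lower, or 2 and 4 with the intensities as deposited. Tfeb, a transcription factor that controls lysosomal genes, was 1.31-fold higher (522 against 682). Mitf, of the same family, was 1.01-fold and the adaptor Gga2 1.05-fold higher. Gga1, a further adaptor that carries mannose 6-phosphate receptors, was 1.12-fold, Psap, the saposin precursor, 1.11-fold and Scarb2, a lysosomal receptor, 1.07-fold lower. Both mannose 6-phosphate receptor genes, M6pr and Igf2r, were below the floor, as were Gnptab and Gnptg of this list. The delivery of cathepsins to lysosomes is therefore poorly covered by the measured genes.

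Lysosomal membrane proteins and hydrolases other than proteases had a median of 0.02 over 19 measured genes, 10 higher and 9 lower, and after lowess 14 were higher. Of these only Cd63, a tetraspanin of late endosomes, was at least 1.5-fold higher, at 1.79-fold (273 against 489). The cholesterol transporter Npc1 was 1.18-fold and the acid lipase Lipa 1.15-fold higher, and the proton pump subunit Atp6v0d1 lower by 0.27 on the log2 scale. The membrane glycoprotein Lamp1 was level, with 1646 and 1641 units. The main-setting ratio of Ctsd was above that of every gene of this list with a full ratio but Cd63. Gusb and Naglu had only bounds. With no floor their log2 ratios were 0.57 and 0.18, against 0.47 for Ctsd.

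The genes that work with cathepsin S in antigen presentation lay slightly higher, 7 of 7 measured in the main setting. Their median was 0.12. After lowess 6 were higher, and 5 with the intensities as deposited. Cd74 and H2-DMb1 passed the floor only on the PS cDKO array, so they had to be higher. The 5 with full ratios had a median of 0.05. Over all 5885 measured genes, 3057 were higher and 2828 lower. With no floor 8 of 9 listed genes were higher, and the class II chain H2-Ea was lower. Cd74, the invariant chain that cathepsin S cleaves, had 227 units in the control against 493, at least 2.13-fold. H2-DMb1, part of the peptide exchange factor, was at least 1.34-fold higher. The class II activator Ciita was 1.11-fold, the class II chains H2-Ab1 1.08-fold, H2-Eb1 1.03-fold and H2-Aa 1.01-fold, and H2-DMa 1.01-fold of control. Only Cd74 thus passed 1.5-fold, from a control signal just under the floor.

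Markers of microglia lay higher together with Ctss and Cst7. Of 22 listed, 18 were on the array and 13 had a ratio; 12 were higher and 3 at least 1.5-fold higher, with a median log2 ratio of 0.27. Over all 5885 measured genes, 3057 were higher and 2828 lower, and 1.12% were at least 1.5-fold higher. The summed signal of the measured microglia markers was 8005 units in the control against 10394. C1qa and C1qc, chains of the complement initiator, were 2.11-fold and 1.66-fold, Itgam, an integrin chain, 1.61-fold and Tyrobp, a signalling adaptor, 1.47-fold higher. Csf1r, the growth factor receptor on which microglia depend, was 1.24-fold and Cx3cr1, a chemokine receptor, 1.13-fold higher, while Ptprc, the leukocyte antigen CD45, was 1.03-fold lower. Aif1, Cd53, Ly86, Fcer1g and Fcgr2b were below the floor, and no measured marker was at 0. With no floor 15 of the 18 markers on the array were higher, and Aif1, Fcer1g and Ptprc were lower. The part of these markers in the ratios of Ctss and Cst7 was not tested.

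Markers of the other cells that could carry these transcripts were uneven. Astrocyte markers, relevant to Cst3, had a median of 0.07 over 9 genes, 6 higher, with summed signals of 11739 and 13294 units; Gfap was 4.68-fold and Aqp4 1.45-fold higher and Aldoc 1.19-fold lower. The Gja1 mean of 1.46-fold covered suffixed probe sets that disagreed, the brighter at 1.01-fold and the dimmer at 2.11-fold. Neuron markers, relevant to Ctsb, Ctsd and Ctsl, had a median of -0.18 with 8 of 10 lower (7 after lowess) and summed signals of 15244 and 12836; Nrgn was 1.49-fold, Nefl 1.39-fold and Syp 1.27-fold lower. Choroid plexus and meningeal markers, a further source of Cst3, had a median of 0.0022 over 8 genes, 4 higher and 4 lower, and summed 8941 and 8360 units; Ttr was 1.84-fold and Igfbp2 1.60-fold lower, and the highest, Col1a1, was 1.15-fold higher. Erythroid markers, a possible source of Ctse, had a median of -0.11 over 3 genes, with Hba-a1 1.37-fold lower, Alas2 1.08-fold lower and Epb42 1.15-fold higher, and summed 2954 and 2454 units. Blood-borne myeloid markers had a median of 0.16 over 6 genes, 3 higher, summed 4414 and 4427 units, with S100a9, Lyz2 and Ccr2 below the floor. Lymphocyte markers had a median of 0.03 over 5 genes (3881 and 3914 units), endothelial and mural markers 0.0059 over 5 (1803 and 1741) and oligodendrocyte markers -0.17 over 6 (4426 and 4165). The part of these cells in the members' ratios was not tested.

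**Figure D4:**
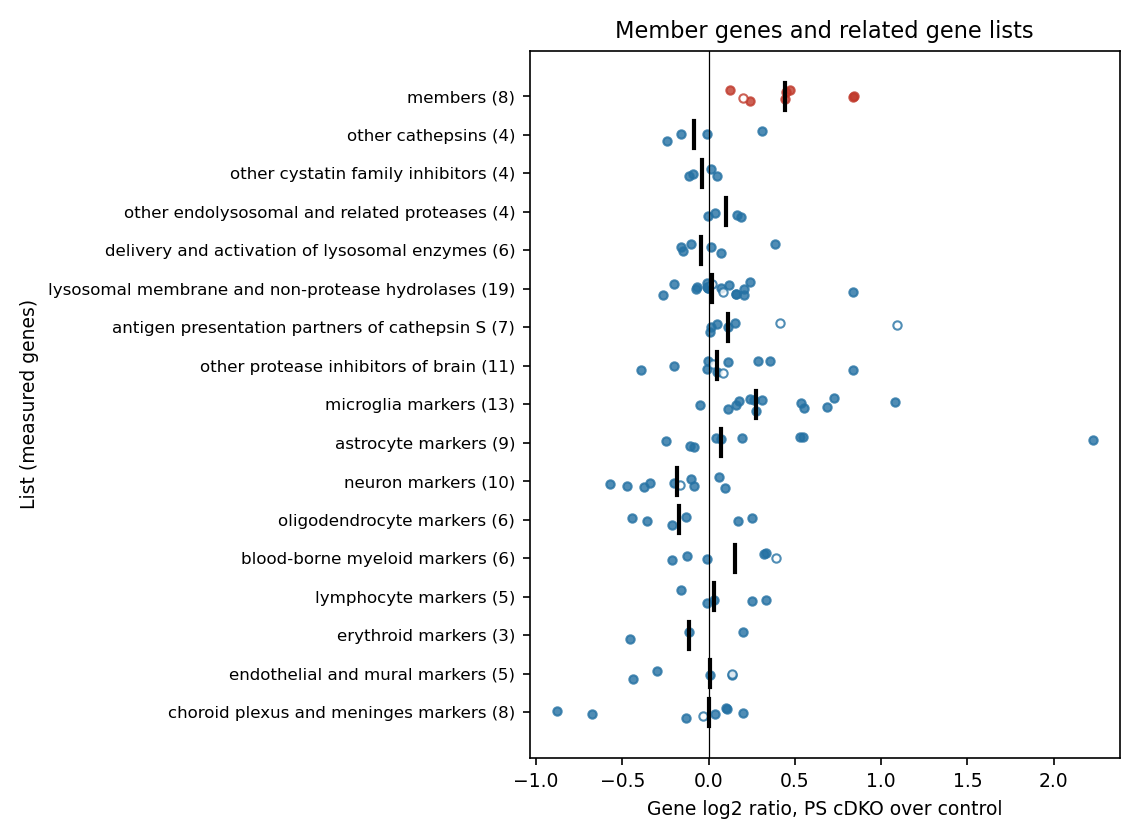
Gene log2 ratio of PS cDKO over control (horizontal axis) for the 8 member genes with a ratio or a bound (red) and for the measured genes of 16 gene lists, 7 of related genes and 9 of cell type markers (blue), with the number of genes in brackets, open circles for bounds and black bars for list medians. The member genes and the microglia markers lie mostly right of 0, with a marker median of 0.27, whereas other cathepsins, with a median of -0.08, and other cystatins, with -0.04, lie around 0.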

How the data were processed

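Cortical total RNA was hybridised to 2 oligonucleotide arrays, 1 per genotype. The deposited table holds 1 linear intensity per probe set and array for 12418 probe sets. Its software and scaling are not stated in the sources; the 13 and 18 negative intensities show that some subtraction preceded deposit. The number of arrays limits the precision.

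Names came from the platform annotation, which may be outdated; 10829 had 1 symbol, 396 several and 1193 none, and those with 1 were used. All 10 members matched their gene ID in RefSeq. The PS cDKO array was scaled to a median log2 ratio of 0 over the probe sets that exceed each array's median, and values under the 40th percentile of both arrays were raised to it before taking log2. Gene values average the full ratios of a gene's probe sets, else their bounds. Suffixed probe sets carry _f, _i and the like before _at, 5 of the 18 here. Named genes were all members, every measured gene of the 7 related lists (cell type markers apart) with up to 8, and otherwise 4 per list by absolute log2 ratio; Lamp1, cell type markers and genes below the floor were named after their values were seen. Members and lists were chosen with earlier results of these data known. No test was run. The steps were tested on simulated data. Alternatives were the intensities as deposited, quantile normalization, lowess (span 0.3), other floors (20th or 60th percentile, or none), no suffixed probe sets, full ratios only, the brightest probe set of a gene, and thresholds of 1.3-fold and 2-fold. Python 3.11.15, numpy 2.4.6, pandas 2.3.3, statsmodels 0.14.6 and matplotlib 3.10.9 were used.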

Additional observations from a re-analysis of the deposited data

How the results depend on the processing

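Each genotype has a single array, so neither leaving out an array nor pairing was possible. Of 92 alternative values of member probe sets, 88 moved by less than 0.21, the SD between probe sets of 1 gene, 4 moved by more and 0 with a called value changed sign. The 4 came from Ctsc 161251_f_at and Cst3 161522_i_at, bounded in the main setting. With the floor at the 20th percentile or none, they were at 0.82 and 0.48. Many of the 92 could not move by that much. Dropping probe sets left the remaining ratios as they were, and so did another floor where both signals exceeded it. The intensities as deposited shifted each full ratio by the same 0.034. The count of 88 is therefore no measure of robustness. The number of member probe sets at least 1.5-fold higher, 4, ranged from 3 to 6 over the other alternatives but was 8 with no floor and 0 at a threshold of 2-fold, and 0 were at least 1.5-fold lower in any. The share of all named probe sets at least 1.5-fold higher moved as well. It was 1.27% in the main setting and 6.11% with no floor. With the floor at the 20th and 60th percentile it was 2.51% and 0.814%. Shares at the other thresholds were not computed. With no floor the median over member probe sets was 0.48. The median of the myeloid proteases was 0.87 with no floor, and 0.84, the value of Ctss alone, with the floor at the 60th percentile, without suffixed probe sets and with full ratios only, since fewer probe sets entered. That of Ctse was 0.63 without suffixed probe sets, and that of the cystatins 0.70 after quantile normalization, where the dimmer Cst3 probe set fell out. Of 144 alternative list medians 5 moved by more than 0.21, those of microglia markers (0.54) and blood-borne myeloid markers (-0.13) with the floor at the 60th percentile, of microglia markers also without suffixed probe sets (0.54), and of other protease inhibitors (0.36) and oligodendrocyte markers (0.15) with no floor.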
